A study of Mus musculus with 12 samples.

Results

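Mitochondrial ribosomal proteins are the nuclear-encoded protein subunits of the mitoribosome, and their genes were followed in mouse Th1 cells with and without lactate dehydrogenase A. Members were all protein-coding genes whose symbol is Mrpl (large subunit) or Mrps (small subunit) followed by digits and an optional letter. The table held 77 of them among 39179 gene IDs, 48 of the large and 29 of the small subunit, and 73 passed the filter on low counts. The 5 pseudogenes with such symbols were left out, and Mrpl33 was not analysed here.

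The mitoribosome translates the messengers of the mitochondrial genome, which encode core subunits of the respiratory chain and of ATP synthase. Its ribosomal RNAs come from mitochondrial DNA, whereas every protein subunit is made in the cytosol and imported. Part of the proteins have bacterial counterparts and part are found only in mitochondria. T cells are known to expand their mitochondrial translation when they are activated.

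RNA was measured in 2 WT (wild-type) and 2 LDHA-KO libraries of primary mouse T cells on the C57BL/6 background; LDHA, lactate dehydrogenase A, turns pyruvate into lactate. How and in which cells the gene was deleted, and whether the 2 libraries per genotype stem from different mice or cultures, is not given in the labels. The p-values therefore reflect only how far these libraries differ, which may be technical. In both genotypes naive CD4+ T cells received immobilised anti-CD3 (5 µg/ml) together with anti-CD28 (2 µg/ml) for 3 days with IL-2 (100 U/ml), anti-IL-4 (10 µg/ml) and IL-12 (10 ng/ml). They were then restimulated for 4 h with phorbol 12-myristate 13-acetate (50 ng/ml) and ionomycin (1 µM) in the presence of GolgiStop, a blocker of protein secretion. The comparison of LDHA-KO with WT asks which transcripts differ without the enzyme.

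Library totals ranged from 919741 to 1293178 counts, and 1 count equalled 0.765 to 1.13 CPM (counts scaled to a common library size). Ldha had 1055 and 1006 WT counts against 42 and 53 in LDHA-KO, which matched the labels. All 9 T cell and Th1 markers were detected, from Cd3d at 53.4 CPM to Ifng at 1583 CPM in WT, and 4 of them (Ifng, Cd2, Il12rb2 and Thy1) were lower and Cd4 was higher in LDHA-KO. Of 14 markers of other cells, 5 (Hba-a1, Hbb-bs, Klrb1c, Lyz2 and Ncr1) had no count, 8 had at most 13 counts in a library, and Csf1r had 348 to 462 and was higher in LDHA-KO (0.29). Their part in the results below was not tested. In bulk RNA, fewer cells of a type and less RNA per cell cannot be told apart.

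The strand setting of the authors' counting is not given in the sources used here, and it bears on every value below. mt-Nd6 is encoded on the strand opposite to every other protein-coding gene of mitochondrial DNA and is known as its least abundant messenger. It nevertheless held 3.72 and 4.09 times the counts of mt-Cytb in the WT libraries and 6.21 and 6.2 times in LDHA-KO. Gapdh, an abundant glycolysis gene, had 13 to 26 counts per library. Whether the counts of a member come from its own strand or from the other strand was not tested, so each value below is the count assigned to the gene in the table.

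Between LDHA-KO and WT, 10 of the 73 tested members changed at an adjusted p under 0.05 (edgeR's quasi-likelihood test, adjusted over all genes), 7 higher and 3 lower in LDHA-KO. With library totals alone in place of TMM scaling, 6 members were higher and 7 lower. The TMM count is 13.7% of the members, against 31.0% of all 9914 tested genes. In each direction the background was 15.6% higher and 15.4% lower; 38.3% of all calls were higher with library totals alone, against 50.4%. The median log2 fold change of the members was -0.03, with the middle 50% of members between -0.24 and 0.31, and the median over all tested genes was -0.01. By sign alone, 34 members were above 0 and 39 below. Both LDHA-KO libraries lay above both WT libraries for 19 members and below them for 18, together 50.7% of those tested. Over all tested genes 31.8% lay above and 32.6% below, together 64.3%.

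The share of genes called depended on depth. Members had a median of 30 counts per library, and 68 of the 77 stayed under 100 counts in every library. Among genes with 100 to under 200 counts summed over the 4 libraries, 2 of 37 members (5.41%) were called, against 22.8% of all tested genes. With under 100 summed counts, 1 of 22 members (4.55%) was called, against 17.8%. With 200 to under 400 it was 3 of 7 members, against 31.3%, and with 400 or more 4 of 7, against 53.5%. No test was made of these shares. The 95% interval of the change excluded a 2-fold difference in either direction for 55 members and a 1.5-fold difference for 12, so moderate changes of single members were within the error for most. These intervals cover the spread between the libraries at hand, which may be technical, and may miss variation between mice or cultures.

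**Figure D1:**
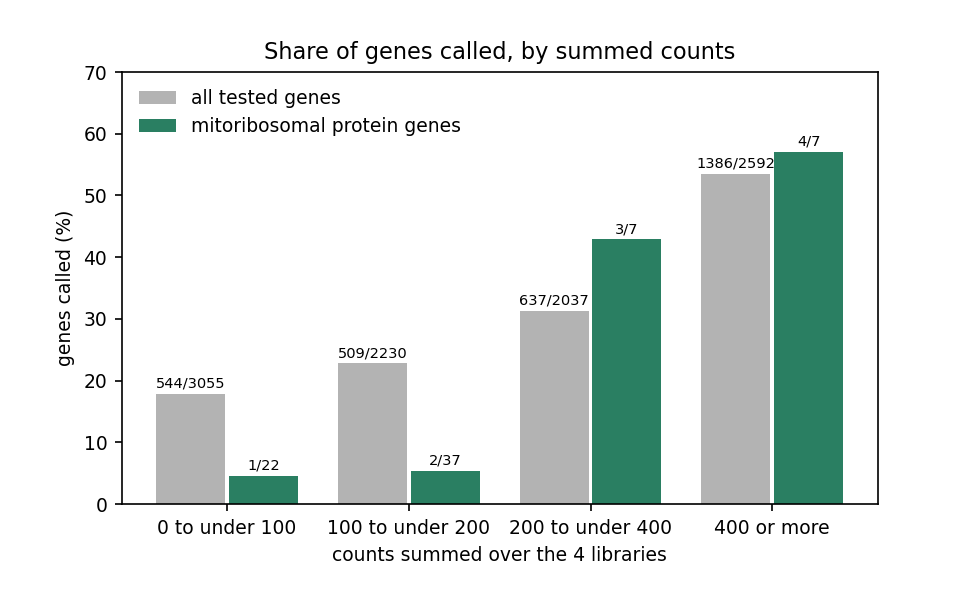
Share of genes called at an adjusted p under 0.05 (vertical axis, percent) by counts summed over the 4 libraries (horizontal axis), for all tested genes (grey) and mitoribosomal protein genes (green), with called over tested above each bar. Members lie below all genes in the 2 bands under 200 counts and above them in the other 2, where only 7 members each were tested.

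**Figure D2:**
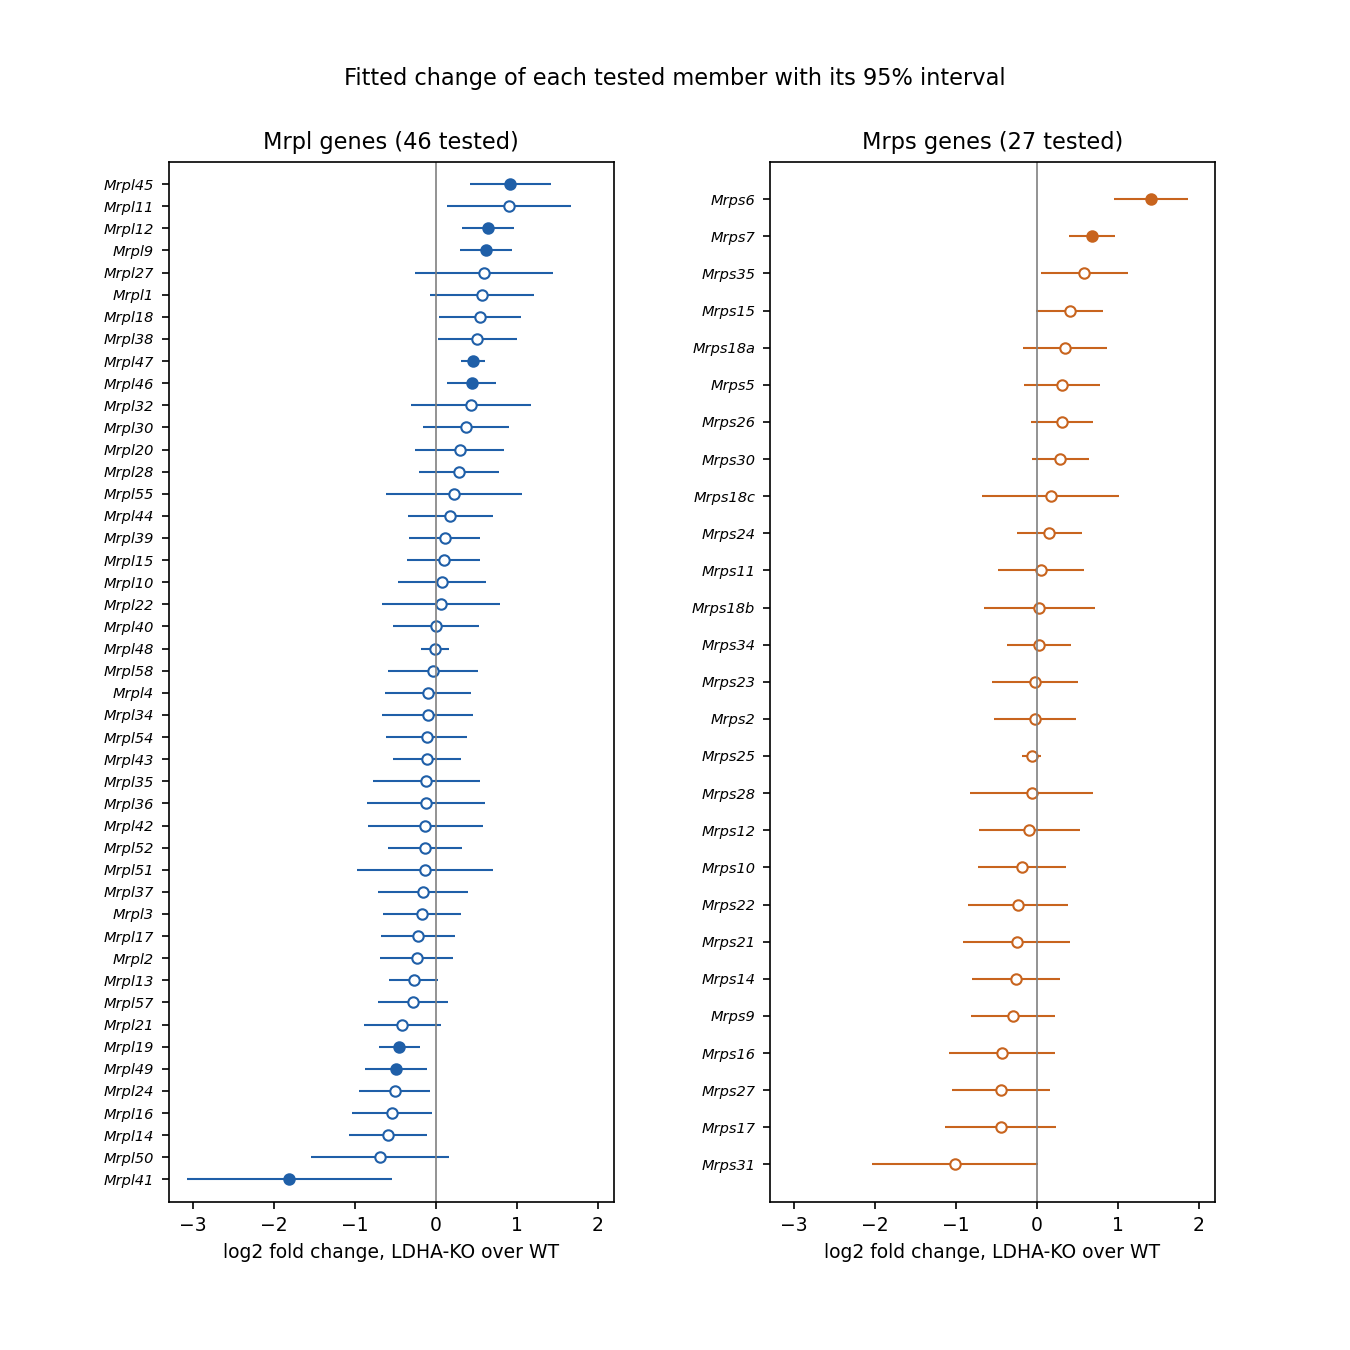
Fitted log2 fold change, LDHA-KO over WT (horizontal axis), of the 46 tested Mrpl genes (left) and 27 tested Mrps genes (right), with 95% intervals as lines; filled points passed the test and open points did not. Changes run from -1.81 (Mrpl41) to 1.41 (Mrps6), and most intervals cross 0.

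In the large subunit 5 of 46 tested members rose and 3 fell (17.4% called), with a median log2 fold change of -0.07. In the small subunit 2 of 27 rose and 0 fell (7.41% called), with a median of -0.02. Both shares lay below the 31.0% called over all tested genes (15.6% higher and 15.4% lower). At an unadjusted p under 0.05 edgeR had 3 Mrps genes higher and 0 lower, against 1988 and 2006 of all 9914 tested genes. DESeq2 called 2 Mrps genes, both higher. With library totals alone Mrps25 was called lower (-0.15, edgeR adjusted p = 0.0443). Structures of the mitoribosome place Mrps18a and Mrps30 in the large subunit, and Mrps36 is known as a subunit of the 2-oxoglutarate dehydrogenase complex. With the first pair moved and Mrps36 left out, the medians were -0.03 for both subunits. Whether the subunits differ was not tested, since a score over the members carries no p.

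Among the small-subunit genes, Mrps6 showed the largest rise of all members. Mrps6, a counterpart of bacterial S6 (ENSMUSG00000039680; chromosome 16, 92058336 to 92112227, build GRCm38.p6), showed 24 and 31 WT counts against 51 and 64 in LDHA-KO. Scaled for depth, its level went from 21.4 ± 4.35 to 57.0 ± 0.923 CPM (SD, n = 2 per genotype), which is 1.41 ± 0.23 (SE) as log2 fold change (edgeR adjusted p = 3.34e-06), and the genotypes did not overlap. Slc5a3, the myo-inositol transporter gene, shares 29138 bases of its span with Mrps6 on the same strand and moved the other way. Slc5a3 had 29 and 47 WT counts against 6 and 15 in LDHA-KO (log2 fold change -1.50, SE 0.34, edgeR adjusted p = 0.000707). How reads in the shared stretch were assigned is not given in the sources used here.

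Mrps7, which binds the small ribosomal RNA in the head of the subunit (ENSMUSG00000046756; chromosome 11, 115604140 to 115608036), was the other small-subunit gene that rose. It had 108 and 95 WT counts against 101 and 155 in LDHA-KO. On the CPM scale these were 78.9 ± 5.32 and 125 ± 15.8 (SD, n = 2 per genotype), which is 0.68 ± 0.14 (SE) as log2 fold change (edgeR adjusted p = 0.0002), without overlap. Mrps7 overlaps Gga3 and Mif4gd on the other strand, by 378 and 119 bases, and neither passed the test (log2 fold changes 0.20 and 0.45).

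Of the large-subunit genes, Mrpl47, the counterpart of bacterial L29 at the exit of the polypeptide tunnel, rested on the most counts (ENSMUSG00000037531; chromosome 3, 32727497 to 32736755). It had 583 and 545 WT counts against 501 and 719 in LDHA-KO. Its level rose from 438.5 ± 10.7 to 599.7 ± 47.2 CPM (SD, n = 2 per genotype), which is 0.46 ± 0.07 (SE) as log2 fold change (edgeR adjusted p = 3.98e-06), a 1.37-fold difference larger than the spread of either pair. Mrpl45, known to anchor the ribosome to the inner membrane at that exit, had 25 and 28 WT counts against 33 and 46 in LDHA-KO. Its level rose from 20.6 ± 2.13 to 38.9 ± 2.26 CPM (SD, n = 2 per genotype), which is 0.92 ± 0.25 (SE) as log2 fold change (edgeR adjusted p = 0.0036). Of the 7 tested genes listed for the tunnel rim, these 2 rose and 0 fell (28.6%, against 31.0% of all tested genes); the other 5, among them Mrpl24 at -0.51 and Mrpl44 at 0.18, did not pass.

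Mrpl12 encodes the stalk protein that recruits translation factors. It had 76 and 84 WT counts against 78 and 119 in LDHA-KO, or 62.3 ± 5.85 and 96.5 ± 11.7 CPM (SD, n = 2 per genotype), which is 0.65 ± 0.16 (SE) as log2 fold change (edgeR adjusted p = 0.00149). The other stalk genes, Mrpl11 (0.90, adjusted p = 0.0635 by edgeR) and Mrpl10 (0.07), did not pass. Mrpl9, the counterpart of bacterial L9, had 77 and 72 WT counts against 79 and 101 in LDHA-KO, and rose from 57.9 ± 1.40 to 89.1 ± 0.269 CPM (SD, n = 2 per genotype), which is 0.62 ± 0.16 (SE) as log2 fold change (edgeR adjusted p = 0.00267). Mrpl46, of the central protuberance, had 105 and 94 WT counts against 103 and 109 in LDHA-KO, a rise of 0.44 (SE 0.15, edgeR adjusted p = 0.0195). It was the single gene of 8 tested for the central protuberance that passed (12.5%, against 31.0% of all tested genes). The list's median was 0.22. In GRCm38.p6 these genes lie as follows: Mrpl45 (ENSMUSG00000018882) at 97314923 to 97329920 of chromosome 11, Mrpl12 (ENSMUSG00000039640) at 120484637 to 120488754 of chromosome 11, Mrpl9 (ENSMUSG00000028140) at 94443154 to 94448708 of chromosome 3 and Mrpl46 (ENSMUSG00000030612) at 78775341 to 78783089 of chromosome 7. For Mrpl12, Mrpl9 and Mrpl46 the lower LDHA-KO library lay above the higher WT library once scaled for depth.

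The 3 members that fell were all large-subunit genes, and each lost its call when some library was left out. Mrpl19, the counterpart of bacterial L19, had 208 and 179 WT counts against 97 and 125 in LDHA-KO, and went from 150 ± 12.5 to 109.9 ± 0.284 CPM (SD, n = 2 per genotype), which is -0.45 ± 0.13 (SE) as log2 fold change (edgeR adjusted p = 0.00475). Gcfc2, which shares 1273 bases with Mrpl19, rose by 0.82 (edgeR adjusted p = 2.24e-06). The call of Mrpl19 was lost without WT replicate 1 (edgeR adjusted p = 0.077) and without LDHA-KO replicate 2 (0.0524).

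Mrpl41, found only in mitochondria, had 11 and 12 WT counts against 1 and 4 in LDHA-KO. The ratio of WT to LDHA-KO was 3.61, with a 95% counting interval of 1.34 to 12.2 that covers counting error only (edgeR adjusted p = 0.0241). Leaving out any 1 of the 4 libraries ended the call (edgeR adjusted p = 0.0963 to 0.296). Mrpl49, also without a bacterial counterpart, had 85 and 78 WT counts against 35 and 56 in LDHA-KO (log2 fold change -0.49, SE 0.19, edgeR adjusted p = 0.0434). Its call was likewise lost without any 1 library (edgeR adjusted p = 0.0625 to 0.296). The 3 genes lie as follows: Mrpl19 (ENSMUSG00000030045) at 81957826 to 81965949 of chromosome 6, Mrpl41 (ENSMUSG00000036850) at 24972470 to 24975098 of chromosome 2 and Mrpl49 (ENSMUSG00000007338) at 6053630 to 6057755 of chromosome 19. Syvn1, a ubiquitin ligase gene that overlaps Mrpl49 by 89 bases on the other strand, fell by 0.50 (edgeR adjusted p = 0.00964).

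**Figure D3:**
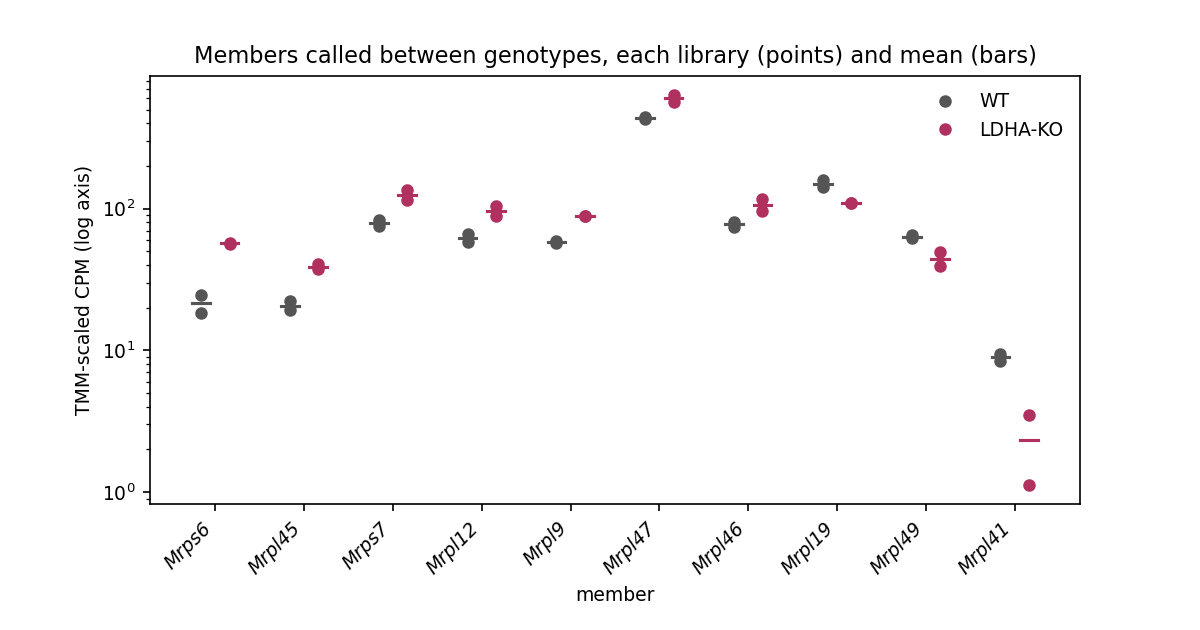
TMM-scaled CPM (vertical log axis) of the 10 members called between genotypes, with each library as a point and the genotype mean as a bar (grey WT, red LDHA-KO, 2 libraries each). The genotypes do not overlap in any of the 10, which were picked by the test on these same libraries. Over all tested genes 64.3% do not overlap. The LDHA-KO libraries of Mrpl41 stand on 1 and 4 counts.

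DESeq2, a second count test run on the same filtered genes, called 3 members higher (Mrps6, Mrpl47 and Mrps7) and 0 lower. At an unadjusted p under 0.05 DESeq2 had 6 of the 73 tested members higher and 1 lower, and edgeR 11 and 6. Over all 9914 tested genes edgeR had 1988 higher and 2006 lower at that level. DESeq2 called 573 of the 9914 genes higher and 475 lower at an adjusted p under 0.05. Of the 10 called members, only Mrps6, Mrpl47 and Mrps7 were called in every other fit tried. Without LDHA-KO replicate 2, Mrpl12 (edgeR adjusted p = 0.0827) and Mrpl45 (0.0561) were not called. Mrpl46 was not called without WT replicate 2 (0.115) or LDHA-KO replicate 1 (0.222), nor with library totals alone (0.0633).

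The 5 members nearest above the threshold were Mrpl14, Mrpl11, Mrpl24, Mrpl16 and Mrps35. Mrpl14, of the face that meets the small subunit, had 51 and 47 WT counts against 24 and 27 in LDHA-KO (log2 fold change -0.59, edgeR adjusted p = 0.054). Mrpl16 had 46 and 47 against 24 and 26 counts (-0.54, edgeR adjusted p = 0.0848), and Mrpl24 had 60 and 58 against 27 and 38 (-0.51, 0.0666). Mrps35 had 22 and 33 against 30 and 35 (0.59, edgeR adjusted p = 0.0897). The genotypes did not overlap after scaling in any of these 5, which were picked by their p-values from the same libraries. Over all tested genes 64.3% did not overlap. With library totals alone Mrpl14, Mrpl16 and Mrpl24 were called lower (edgeR adjusted p = 0.0276, 0.0453 and 0.032). Mrps31, a mitochondria-specific small-subunit gene, had 12 and 14 against 6 and 4 counts, and its value of -1.01 did not pass (edgeR adjusted p = 0.129).

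Grouped by origin, members with and without a bacterial counterpart both had medians near 0, and the share called in each group was below the 31.0% of all tested genes. Of 28 tested large-subunit genes with a bacterial counterpart, 3 rose and 1 fell (14.3%, median 0.07); of 18 mitochondria-specific ones, 2 rose and 2 fell (22.2%, median -0.11). Among tested genes named Mrps, 2 of 18 with a counterpart rose, with a median of -0.00115. Of 9 mitochondria-specific ones edgeR called 0 (median -0.02, with 1 at an unadjusted p under 0.05, and 0 by DESeq2). The 18 include Mrps18a (0.35) and the 9 include Mrps30 (0.29), both placed in the large subunit by structures. Of 5 genes of the decoding region, Mrps7 rose, and the 4 others (Mrps5, Mrps11, Mrps12 and Mrps24) lay between -0.10 and 0.31.

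The genes with at least 300 counts in every library were Mrps25 (1098 to 1616 per library), Mrpl47 (501 to 719) and Mrpl48 (365 to 558). Mrps25, a mitochondria-specific protein of the small subunit, had 1252 ± 22.0 CPM in WT and 1199 ± 60.3 in LDHA-KO (SD, n = 2 each; log2 fold change -0.06, 95% interval -0.18 to 0.05, edgeR adjusted p = 0.421), and with library totals alone it was called lower, as given above. Mrpl48, of the central protuberance, had 395 ± 44.7 and 393.9 ± 26.6 CPM (SD, n = 2 each; log2 fold change -0.01, 95% interval -0.18 to 0.16, edgeR adjusted p = 0.932). Both overlap a gene on the other strand, Mrps25 sharing 3547 bases with Nr2c2 and Mrpl48 sharing 727 with Rab6a. Mrpl47 overlaps no other gene, and Actl6a, on the other strand, ends 523 bases from its end.

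Opposite-strand overlaps were found for 17 members, in 18 pairs. In 8 of these pairs the overlapping gene had more counts than the member. Eme1, an endonuclease subunit gene, had 630 and 654 counts in WT against 11 and 10 of Mrpl27. Rrnad1 had 613 and 600 against 60 and 58 of Mrpl24, and Tcp1, a chaperonin subunit gene, had 777 and 756 against 31 and 28 of Mrpl18. Of the 50 tested members that overlap no RefSeq gene, 5 rose and 1 fell, a share of 12.0% called, against 28.2% over all tested genes without an overlap.

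**Figure D4:**
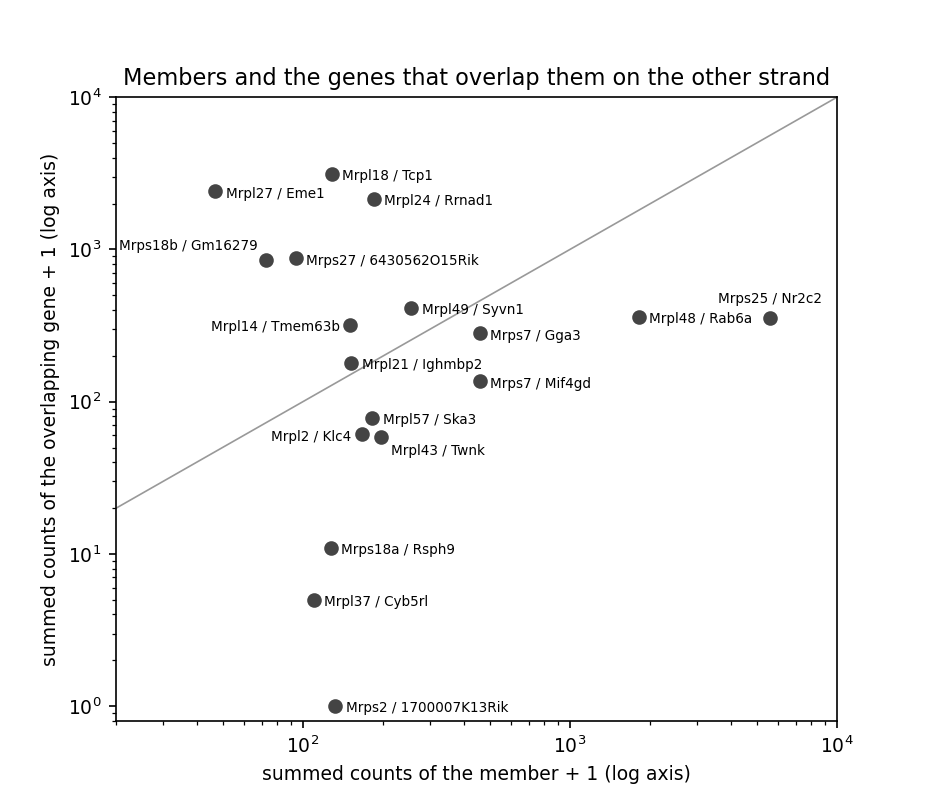
Counts summed over the 4 libraries, plus 1, of members (horizontal log axis) and of the genes that overlap them on the other strand (vertical log axis), 1 point per pair; the line marks equal counts. In 8 of 18 pairs the point lies above the line, where Mrpl27 with Eme1 is the farthest of those 8, and Mrps25 with Nr2c2 lies farthest to the right.

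The other 4 members were too low to be tested. Mrpl53, a large-subunit gene that overlaps Ccdc142 by 14 bases, had no count in any library, which allows between 2.3 and 3.39 CPM, from 3 counts per library. Mrpl23 had 1, 0, 2 and 2 counts, Mrps33 had 2, 4, 2 and 1, and Mrps36 had 3, 2, 2 and 1 (WT, then LDHA-KO). The pseudogene Mrpl23-ps1 held 15 to 20 counts per library, more than Mrpl23 itself, so reads of near-identical copies may be split between such rows and their values are uncertain.

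Summed over all 77 genes, the members took 0.443% and 0.430% of all counts in the WT libraries, against 0.436% and 0.433% in the LDHA-KO libraries. The large-subunit sum was 2319 ± 135 CPM in WT and 2491 ± 48.5 in LDHA-KO, and the small-subunit sum was 1995 ± 30.4 and 2047 ± 43.5 CPM (SD, n = 2 each). Ratios of large to small sums were 1.22 and 1.10 in WT and 1.18 and 1.25 in LDHA-KO, so the genotypes overlapped. Without Mrps25, Mrpl47 and Mrpl48 the ratios were 2.09 and 1.91 in WT and 1.77 and 1.76 in LDHA-KO, and did not overlap. With Mrps6 and Mrps7 also left out they were 2.42 and 2.2 in WT and 2.22 and 2.27 in LDHA-KO, and overlapped again. Both subsets were chosen after the values were seen. Mrps6 and Mrps7 are the Mrps genes called higher in these same libraries, so leaving them out cannot show whether the subunits differ.

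Mitoribosome subunits with other names lay outside the symbol rule. Of 5 tested, Gadd45gip1, a large-subunit protein at the tunnel exit, rose from 431.1 ± 18 to 610.4 ± 6.52 CPM (SD, n = 2 per genotype), which is 0.50 ± 0.07 (SE) as log2 fold change (edgeR adjusted p = 4.24e-07). The small-subunit genes Dap3 (0.20), Chchd1 (0.30), Aurkaip1 (0.47) and Ptcd3 (0.03) did not pass. The ribosomal RNAs had 404 and 428 counts (mt-Rnr1, small subunit) and 414 and 439 (mt-Rnr2, large subunit) in WT, and 397 and 453, and 346 and 427, in LDHA-KO. mt-Rnr1 rose by 0.38 (SE 0.08, edgeR adjusted p = 0.00038), while mt-Rnr2 at 0.21 did not pass (SE 0.08, edgeR adjusted p = 0.0523). Among messengers of mitochondrial DNA, mt-Cytb (0.68), mt-Co1 (0.92), mt-Nd1 (1.04) and mt-Nd6 (1.34) were also called higher, each by more than mt-Rnr1. Its other messengers are not given here. Whether mt-Rnr1 changed apart from mitochondrial transcripts in general was not tested.

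Of 23 tested factors of mitoribosome assembly, ribosomal RNA modification and binding, 1 rose and 6 fell, 30.4% of them against 31.0% of all tested genes, with a median of -0.18. Malsu1, which keeps the assembling large subunit from joining the small one too early, fell from 254 ± 19.7 to 131.0 ± 19.0 CPM (SD, n = 2 per genotype), which is -0.94 ± 0.11 (SE) as log2 fold change (edgeR adjusted p = 6.37e-09). The ribosomal RNA methyltransferase gene Mrm1 had 67 and 63 WT counts against 17 and 27 in LDHA-KO (-1.21, edgeR adjusted p = 6.92e-05). Ddx28, a helicase of large-subunit assembly, fell by 1.12, and the others that fell, Fastkd2, Mrm3 and Mterf4, had at most 7 counts in each LDHA-KO library. Without LDHA-KO replicate 2 the calls of Ddx28, Fastkd2, Mterf4 and Mrm3 were lost (edgeR adjusted p = 0.109, 0.119, 0.268 and 0.159), and without WT replicate 2 those of Fastkd2, Mterf4 and Mrm3 (0.287, 0.11 and 0.334). Mrm3 was also lost without either other library (0.0619 and 0.192), and DESeq2 called Gtpbp6, Malsu1 and Mrm1 of the list, with no adjusted p for Fastkd2 and Mrm3. Gtpbp6, a GTPase that recycles mitoribosomes and aids their assembly, was the riser, from 51.6 ± 7.05 to 129 ± 11.6 CPM (SD, n = 2 per genotype), which is 1.33 ± 0.15 (SE) as log2 fold change (edgeR adjusted p = 3.18e-09).

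Of 20 tested genes on the list of mitochondrial translation factors and messenger delivery, 4 rose and 2 fell, with a median of 0.105 (background 31.0%). The initiation factor gene Mtif3 rose by 0.66 (edgeR adjusted p = 3.42e-10), Gfm2, an elongation factor that acts in ribosome recycling, by 0.45 (3.26e-05), Tsfm by 0.84 (0.0274) and Slirp, of messenger stability, by 0.19 (0.0107). Mief1, whose messenger also encodes a small protein of mitoribosome assembly, fell by 1.04 (edgeR adjusted p = 0.000748). DESeq2 called 2 genes of the list, Mtif3 and Gfm2, and its adjusted p was 0.344 for Tsfm, 0.145 for Slirp and 0.0881 for Mief1. The call of Tsfm was lost when WT replicate 1 (edgeR adjusted p = 0.236) or either LDHA-KO library (0.101 and 0.0928) was left out, and after thinning (0.241). That of Slirp was lost with library totals alone (0.152) and when replicate 2 of WT (0.0784) or of LDHA-KO (0.27) was left out. The other faller, C130026I21Rik (-2.2), is not known as a translation factor and stood on the list in error. The counts, share and median given for the list include it. The elongation factor gene Tufm had 14 and 19 WT counts against 13 and 28 in LDHA-KO and did not pass (0.66, edgeR adjusted p = 0.145).

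Set beside related genes of the same fit, cytosolic ribosomal protein genes, which have many processed pseudogenes, had 46 of 69 tested members higher and 0 lower, 66.7% against 31.0% of all tested genes, with a median of 0.48 (edgeR, also 0 lower at an unadjusted p under 0.05; DESeq2 called 30). They also held more counts, a median of 520 summed over the libraries against 127 for the mitoribosomal genes. Complex I subunit genes, whose products include partners of proteins made by the mitoribosome, had 2 of 34 higher and 0 lower, or 5.88% (4 and 0 at an unadjusted p under 0.05; DESeq2 called 0), with a median of 0.19 and 172.5 summed counts. No test of the difference between these lists was made.

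Promoters were compared in windows of 250 bases before to 50 after the start site (RefSeq, GRCm38.p6), which matched 68 members with 74 windows. The ETS core, searched as CCGGAAG on either strand, stood in 25 of these windows (33.8%), against 20.2% of the windows of tested protein-coding genes and 11.6% of all protein-coding windows. The NRF1 motif (GCGCA, any base, then GCGC, on either strand), of a regulator of nuclear genes for mitochondria, stood in 13 (17.6%), against 11.3% and 6.4%. The YY1 motif AAGATGGCG (either strand) stood in 8 (10.8%), against 3.7% and 1.8%, and the E-box CACGTG, which MYC can bind, in 7 (9.5%), against 10.6% and 7.8%. At least 1 of the ETS, NRF1 and YY1 motifs stood in 54.1% of the members' windows and in 31.5% of those of tested genes. A match is a run of letters and no proof of binding.

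The following 30-base pieces upstream of an annotated start site, for Mrpl9 and Mrpl45 one inside the gene's span, show such matches in capitals, with each piece written on the member's own strand. The capitals of Mrpl12, Mrps27 and Mrps11 are the reverse complement of the motif as spelled above. The first 3 pieces hold the NRF1 motif, and for it only members that rose are shown. Members with an NRF1 match that were not called, such as Mrpl17 (-0.22), Mrpl57 (-0.28) and Mrpl32 (0.43), are left out. The risers Mrps6, Mrps7, Mrpl47 and Mrpl46 had no NRF1 match. The next pieces are a pair with the ETS core. The last holds the YY1 motif upstream of Mrps11, in a stretch that lies within the annotated span of Mrpl46.
Mrpl12 (chr11:120484546-120484575, plus strand): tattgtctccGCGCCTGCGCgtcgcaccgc
Mrpl9 (chr3:94443298-94443327, plus strand): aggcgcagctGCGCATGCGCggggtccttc
Mrpl45 (chr11:97315586-97315615, plus strand): gaagcctcctGCGCAGGCGCagctggctct
Mrpl3 (chr9:105053238-105053267, plus strand): tgagaaacggaCCGGAAGtggcccggctgt
Mrps27 (chr13:99344727-99344756, plus strand): tggtaggaccaCTTCCGGcggaggcgggct
Mrps11 (chr7:78783013-78783042, plus strand): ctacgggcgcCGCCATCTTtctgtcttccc

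Of the 13 tested members with an NRF1 match, edgeR called 3 higher (Mrpl12, Mrpl9 and Mrpl45) and 0 lower, with a median log2 fold change of 0.18. At an unadjusted p under 0.05 edgeR had 3 of them higher and 1 lower, and DESeq2 called 0 of them. Over all tested genes with that match the share called was 22.7% and the median 0.000705, and the members' share was 23.1%. Of the 23 tested members with an ETS match, 0 were called by edgeR (1 at an unadjusted p under 0.05, and 0 by DESeq2), with a median of -0.10 and values from -0.45 to 0.59, against 24.1% called and a median of -0.02 over tested genes with that match. These groups were formed after the values were seen and were not tested.

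Some members start close to the start site of another gene on the opposite strand. A start site of another protein-coding gene lay within 1000 bases upstream on the opposite strand for 24 of 68 members (35.3%), against 14.9% of tested and 8.5% of all protein-coding genes with a window. A pair of this kind holds a gene of each subunit: the start sites of Mrpl46 and Mrps11 lie 42 bases apart. Mrpl46 rose (0.44), and Mrps11, with 35 and 30 WT counts against 22 and 31 in LDHA-KO, had a value of 0.05. Mrpl49 lies 192 bases from Fau, which encodes a cytosolic ribosomal protein; Mrpl49 fell by 0.49 and Fau rose by 0.91 (edgeR adjusted p = 0.0349). Of 19 such pairs with both genes tested, counting Mrpl46 with Mrps11 as 1, 8 had log2 fold changes of the same sign.

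**Figure D5:**
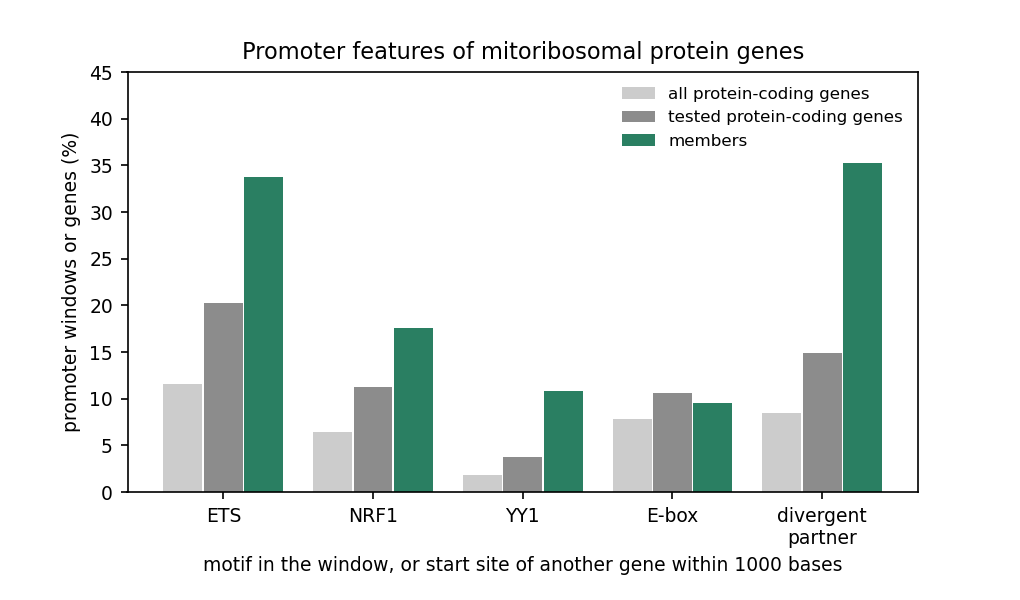
Percent of promoter windows with each motif, and percent of genes with a start site of another gene within 1000 bases upstream on the opposite strand (vertical axis), for all protein-coding genes (light grey), tested protein-coding genes (dark grey) and mitoribosomal protein genes (green). Members exceed both other sets for ETS (33.8%), NRF1 (17.6%), YY1 (10.8%) and divergent partners (35.3%), and not for the E-box (9.5%).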

How the data were processed

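RNA-seq libraries of Th1 cells (2 WT, 2 LDHA-KO) were used; the 8 chromatin samples of the series were not analysed here. The authors deposited raw read counts per Ensembl gene ID. The submitters' processing notes name the aligners STAR 2.3.0e and Bowtie2 2.2.6, the counter HTSeq 0.6.0, Trimmomatic 0.33, FastQC 0.11.2 and build mm10 (GRCm38). Strand setting, annotation release and handling of multi-mapping reads: not given in the sources used here. Columns were assigned to samples by genotype and replicate number in their names.

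The table had 43374 rows; 4195 extra rows of 1557 repeated IDs with identical values were removed, leaving 39179 IDs, of which 37607 had a symbol. Genes were filtered with edgeR's filterByExpr (9914 tested), scaled by TMM and tested with edgeR 4.0.16 (quasi-likelihood F-test, R 4.3.3), with Benjamini-Hochberg adjustment over all tested genes and a threshold of 0.05. CPM values are counts scaled to the TMM-adjusted library size. DESeq2 1.42.0 was an alternative, as were other scalings and filters, a replicate block, leaving out each library, and thinning to the smallest library. The edgeR fit was also run on simulated counts with a fixed spread between replicates, close to that of these libraries. Such counts hold no strand error, and their spread was set rather than measured, so the run does not bear on either point. Fold changes are LDHA-KO over WT. Positions, overlaps and promoter windows come from RefSeq GRCm38.p6.

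Named were the genes called, the 5 most abundant, the 5 nearest above the threshold, the most extreme changes, members not tested, subunits with other names, and called assembly and translation factors; other genes are named as examples. The members and lists were chosen with earlier results of these data known. Replicate numbers were not used as pairs in the main fit, since the labels give no link between samples. The deviations of same-numbered libraries correlated at -0.0114 over the more abundant genes. With 2 libraries per genotype and much sampling noise, this value cannot decide whether samples were paired. Replicates differed per gene by slightly more than sampling noise (chi-square per gene 1.15 in WT and 1.23 in LDHA-KO). For the members the values were 0.992 and 0.861, not above sampling noise.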

Additional observations from a re-analysis of the deposited data

How the results depend on the processing

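With library totals in place of TMM scaling, 6 members were called higher and 7 lower, the median log2 fold changes were -0.15 (large subunit) and -0.105 (small), and the log2 ratios of summed levels were 0.022 and -0.0442, against 0.104 and 0.0373. DESeq2 called 1048 genes (edgeR 3076), 3 members higher and 0 lower (1 lower at an unadjusted p under 0.05). Thinning every library to the smallest total called 2345 of 9041 tested genes. Of 69 members then tested, 7 were higher and 1 lower, with medians of -0.0176 (large) and 0.109 (small). Leaving out each library gave 1973 to 2412 genes called, 6 to 8 members higher, 0 to 2 lower (3 to 5 lower at an unadjusted p under 0.05), medians of -0.104 to 0.0848 (large) and -0.0368 to 0.00724 (small), and summed ratios of 0.0452 to 0.164 and 0.0154 to 0.0588; the lone library of a genotype is then assumed to vary like the other pair. Among members that overlap no other gene 5 were higher and 1 lower. Placing members by structure gave a large-subunit median of -0.0251. In alternatives chosen after seeing the data, the summed ratio was 0.0123 for the large subunit without Mrpl47 and Mrpl48, and 0.192 for the small subunit without Mrps25. The cause of these shifts was not tested. With the replicate number as a block, 2803 genes, 7 members higher and 2 lower were called, and Mrpl49 lost its call (edgeR adjusted p = 0.0578).

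Of 400 single-gene values under the alternatives, 340 kept direction and side of the threshold, 49 fell short of it, 6 newly passed and 5 changed sign. The sign changes were Mrpl48 (-0.123 to 0.108 over the fits that leave out 1 library, above 0 when WT replicate 1 or, at 0.0688, LDHA-KO replicate 2 is left out) and Ptcd3. Ptcd3 was at -0.0482 with library totals and at -0.279 to 0.373 over the fits that leave out 1 library, below 0 without LDHA-KO replicate 1 and, at -0.0445, without WT replicate 2. DESeq2 gave no adjusted p for Mrpl41, and thinning left it untested. With a median of 30 counts per library, changes under 2-fold lie within the error of many members.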
